A study of Mus musculus with 6 samples.

Results

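The genes described here encode enzymes that write and erase methyl groups on histone lysines, the histone deacetylases (HDACs), and the chromodomain helicase (CHD) chromatin remodellers. They were chosen by symbol: all symbols of the deposited expression table that start with Kmt2, Kmt5, Kdm, Setd or Hdac, or with Chd and a digit, together with Ehmt1, Ehmt2, Ezh1, Ezh2, Suv39h1, Suv39h2 and Nsd1, less 4 Kdm symbols that the rule leaves out. This gave 62 of the 45291 symbols in the table. Where a symbol had several loci, the one with the highest mean level was used.

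The libraries were made from total RNA of primary hippocampal cultures of C57BL/6 mice, prepared on postnatal day 0 and kept for 14 days in vitro, 3 from wild type (WT) cultures and 3 from cultures of *Fmr1* knockout (KO) mice, with no other allele or treatment named for either group. *Fmr1* encodes FMRP, the RNA-binding protein whose loss causes fragile X syndrome. The study describes its animals in general as male *Fmr1* KO mice with WT littermates, and the sources used here do not describe the allele or tie each library to a sex or litter of pups, so the p-values measure the spread between these libraries. Levels are FPKM, fragment numbers scaled for transcript length and for library size, which can be compared between genes.

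Histone lysine methylation is placed by SET domain enzymes that are selective for one residue: methylation of lysine 4 of histone H3 (H3K4) marks active promoters and enhancers, H3K36 marks transcribed gene bodies, and H3K9, H3K27 and H4K20 methylation are associated with repressed or compacted chromatin. KDM enzymes remove these groups, HDACs remove acetyl groups from lysines within corepressor complexes, and CHD proteins move nucleosomes with energy from ATP. Many of these genes are known from human neurodevelopmental disorders, among them KMT2D in Kabuki syndrome, EHMT1 in Kleefstra syndrome, NSD1 in Sotos syndrome and CHD7 in CHARGE syndrome.

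The level of Fmr1 itself, 19.0, 19.5 and 19.7 FPKM in WT libraries and 23.1, 21.8 and 18.5 FPKM in those labelled *Fmr1* KO, was not reduced (exact permutation test, two-sided, p = 0.4, where 0.1 is the smallest p that 3 against 3 libraries allow). FPKM of the gene therefore does not check the labels, and *Fmr1* KO below means the libraries labelled so. For mouse hippocampus, not these libraries, the study reports FMRP on blots of WT and not of *Fmr1* KO samples, and genotyping by PCR. The FPKM of all loci summed to between 1803679 and 2303083 per library, of which the noncoding RNA Bc1 made up 73.7 to 80.6%, and the sequencing depth is unknown. WT replicate 1 stood apart by low values at long transcripts, and the plot of changes shows each gene also without it.

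Most of the genes were expressed in these cultures at a moderate level, and the differences between genotypes were small. Of the 62 genes, 59 had a mean of at least 1 FPKM in either genotype and were tested, with limma on log2(FPKM + 0.1) across 13195 loci. At an unadjusted p below 0.05, 8 of the 59 (13.6%) differed, of which Kmt2b, Ehmt1, Setd1a, Hdac7, Chd7, Setd7 and Chd3 were higher in *Fmr1* KO and Hdac9 was lower. Among all tested loci the same threshold was passed by 14.8% (6.99% higher and 7.77% lower), so with all libraries the share among these genes was close to that of the table. None of the 59 reached an adjusted p below 0.05 in limma, against 0.265% of all tested loci, and the lowest adjusted p was 0.201 (Hdac9).

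The direction of the small differences was uneven. The fitted change, *Fmr1* KO minus WT on the log2 scale, was above 0 for 49 of the 59 genes (83.1%) and for 51.7% of all tested loci, with a median of 0.091 for the genes and 0.005 for the loci. The *Fmr1* KO libraries all lay above the WT libraries for 15 genes (25.4%, against 10.8% of all tested loci), and all lay below them for 2 genes (against 10.3%), which makes 17 genes with separated libraries (28.8%, against 21.1%). The genes are not independent of each other, and the list was described without a test. The standard errors of the changes ran from 0.05 to 0.23 with a median of 0.073, and for 56 of the 59 genes the 95% interval lay within 0.5 of 0 in both directions.

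**Figure D1:**
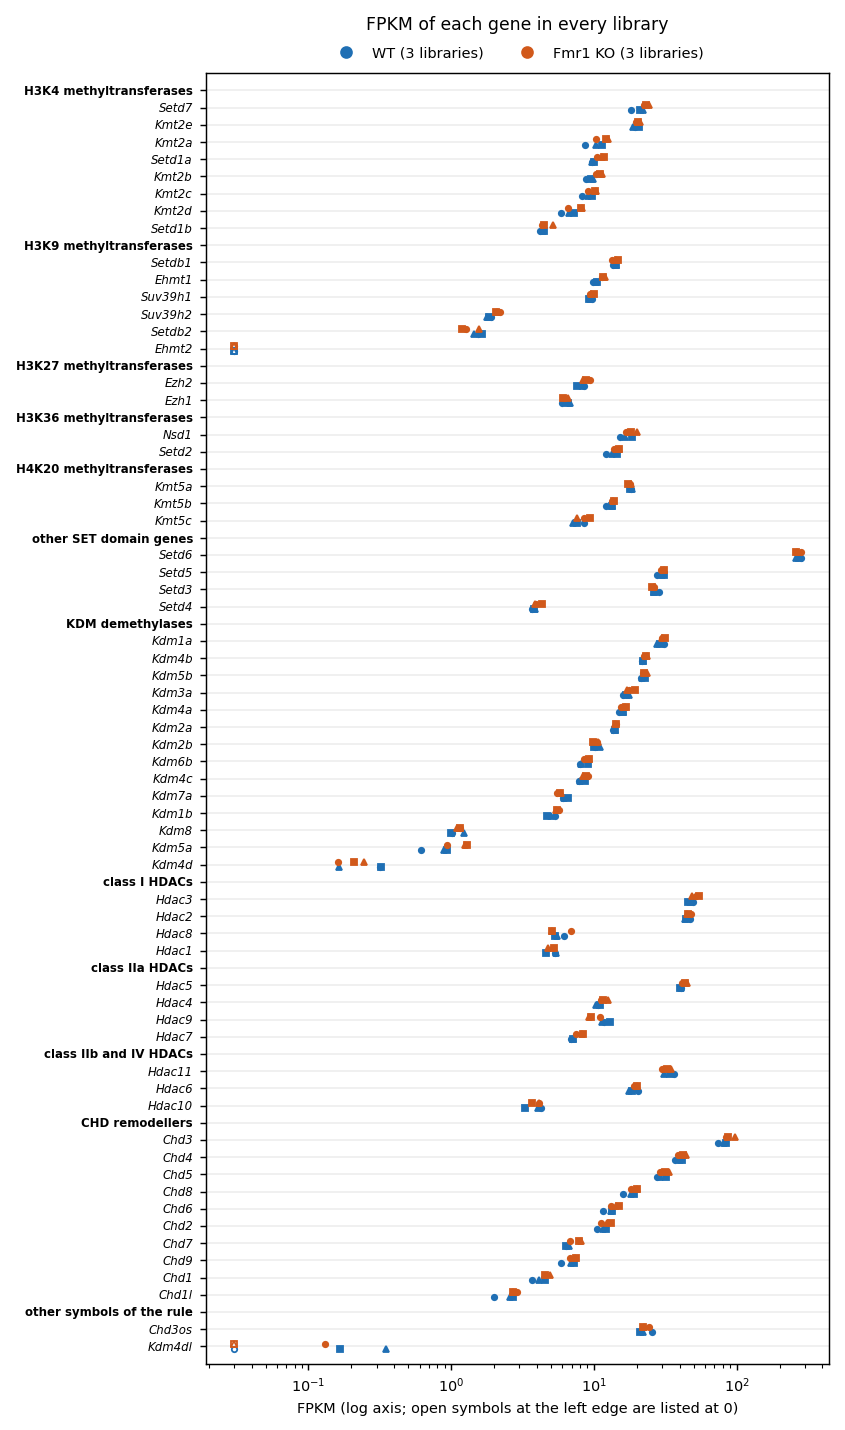
FPKM of all 62 genes (log axis) in each of the 6 libraries, grouped by role and ordered by mean level, with WT in blue and *Fmr1* KO in orange; circles, squares and triangles are replicates 1, 2 and 3, and open symbols at the left edge are values listed at 0. The row of Setd6, at 260 to 283 FPKM, is one locus shared with Ndrg4, and the 2 genotypes lie close together for nearly every gene.

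The levels covered a wide range. The median of the tested genes was 11 FPKM, close to the 10.2 FPKM of all tested loci, and 35 of the 62 genes had a mean above 10 FPKM. Chd3 was the most abundant at a locus of its own, with a mean of 84.6 FPKM, followed by Hdac3 (49.4), Hdac2 (45.6), Hdac5 (41.9) and Chd4 (40.6). The means of these last 4 genes were close enough that their libraries overlapped between neighbours in the order. The higher value of Setd6, 270 FPKM, belongs to a locus that also carries the symbol of Ndrg4, and the table does not separate the 2 genes. Shared loci also hold Chd2 (with 1810026B05Rik), Hdac5 (with Mir8101) and Setdb2 (with Phf11c and Gm45935).

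The 3 genes that were not tested were at or near 0. Ehmt2, which encodes the H3K9 methyltransferase G9a, was listed at 0 in all 6 libraries, at each of its 4 loci. Extra loci on scaffolds outside the chromosomes exist for Ehmt2, Kdm5a and Hdac1, and all of these were listed at 0. The sources used here do not say how reads that fit several copies were counted, so the levels of these 3 genes are uncertain, and the listed 0 of Ehmt2 is not evidence that the transcript was absent. Kdm4d lay between 0.162 and 0.324 FPKM, and its neighbour Kdm4dl, annotated as a pseudogene, between 0 and 0.352 FPKM.

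Among the H3K4 methyltransferases, all 8 genes had a fitted change above 0. Of these, 3 (Kmt2b, Setd1a and Setd7) passed the unadjusted threshold, which 14.8% of all tested loci passed. The longest annotated transcript of each of the 8 is over 4 kb. Among all tested loci, a change above 0 was found for 75.2% with a transcript over 8 kb and 59.5% with one of 4 to 8 kb. The median change of the 8 was 0.19, and 0.10 without WT replicate 1. Kmt2b, an MLL family enzyme of promoters (chr7:30568855-30589056), was at 8.80, 9.51 and 9.83 FPKM in WT and 10.4, 11.1 and 11.4 FPKM in *Fmr1* KO. All *Fmr1* KO libraries were above all WT libraries, with a change of 0.22 (SE 0.07, unadjusted p = 0.0103, adjusted p = 0.206 in limma), and 0.18 without WT replicate 1. Setd1a, the catalytic subunit of a COMPASS complex (chr7:127777389-127800122), was at 9.72, 10.1 and 9.74 FPKM in WT and 10.5, 11.8 and 11.4 FPKM in *Fmr1* KO. Its libraries were also separated, with a change of 0.19 (SE 0.06, unadjusted p = 0.0183, adjusted p = 0.243 in limma), and 0.18 without WT replicate 1. The unadjusted p of Setd1a was 0.0503 without WT replicate 3, 0.0795 without *Fmr1* KO replicate 2 and 0.0542 without *Fmr1* KO replicate 3.

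Setd7, which monomethylates H3K4 and several non-histone proteins (chr3:51515318-51560823), was the most abundant of the group. It was at 18.2, 21.1 and 22.1 FPKM in WT and 22.6, 23.2 and 24.3 FPKM in *Fmr1* KO. The libraries did not overlap, but WT replicate 1 stood below the other WT libraries. The change was 0.19 (SE 0.08, unadjusted p = 0.0328, adjusted p = 0.292 in limma) with all libraries and 0.11 without WT replicate 1. The unadjusted p from limma was then 0.0831, and it was 0.0636 without *Fmr1* KO replicate 2, 0.102 without *Fmr1* KO replicate 3 and 0.0583 without the mean-variance trend.

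The other MLL genes were at similar levels and did not pass the threshold. Kmt2a was at 8.71, 11.4 and 10.4 FPKM in WT and 10.3, 12.1 and 12.6 FPKM in *Fmr1* KO, a change of 0.20 (95% interval -0.05 to 0.45). Kmt2d was at 5.88, 7.25 and 6.64 FPKM in WT and 6.55, 8.08 and 8.25 FPKM in *Fmr1* KO, a change of 0.21 (95% interval -0.04 to 0.46). In both genes the lowest of the 6 values was that of WT replicate 1, and the groups overlapped. Without that library the changes were 0.09 for Kmt2a and 0.13 for Kmt2d, with unadjusted p of 0.363 and 0.282 in limma. Both passed the unadjusted threshold in limma without WT replicate 2 (0.0385 for Kmt2a and 0.0485 for Kmt2d) or without *Fmr1* KO replicate 1 (0.0347 and 0.015). Kmt2c, an enzyme of enhancer H3K4 methylation like Kmt2d, was at 8.24, 9.74 and 9.03 FPKM in WT and 9.04, 10.2 and 10.4 FPKM in *Fmr1* KO. Kmt2e, whose product has a SET domain thought to be inactive, was at 19.4, 20.8 and 18.8 FPKM in WT and 19.8, 20.3 and 21.1 FPKM in *Fmr1* KO. Their changes were 0.13 and 0.05, and that of Setd1b (mean 4.49 FPKM) was 0.09. Without WT replicate 1 these were 0.07, 0.04 and 0.06.

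Of the 5 tested H3K9 methyltransferases, Ehmt1 alone passed the unadjusted threshold. Ehmt1, which encodes GLP, the partner of G9a (chr2:24790769-24919643), was at 9.91, 10.5 and 10.4 FPKM in WT and 11.4, 11.6 and 11.9 FPKM in *Fmr1* KO. The groups were separated and each was tight, with a change of 0.18 (SE 0.06, unadjusted p = 0.0135, adjusted p = 0.222 in limma) and 0.15 without WT replicate 1. The threshold was missed only without *Fmr1* KO replicate 3 (unadjusted p = 0.0521) among the alternatives run. Setdb1, which trimethylates H3K9 at silenced repeats, was the most abundant of the group, at 13.7, 14.4 and 14.3 FPKM in WT and 13.5, 14.7 and 14.4 FPKM in *Fmr1* KO, and its change was 0.01 (95% interval -0.13 to 0.14).

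The SUV39H paralogues of constitutive heterochromatin differed in level. Suv39h1 was at 9.68, 9.28 and 9.34 FPKM in WT and 9.33, 10 and 9.60 FPKM in *Fmr1* KO. Suv39h2 was at 1.90, 1.84 and 1.79 FPKM in WT and 2.20, 2.06 and 2.11 FPKM in *Fmr1* KO. Suv39h1 made up 83.6, 83.4 and 83.9% of the pair in WT libraries, against 80.9, 82.9 and 81.9% in *Fmr1* KO libraries, so the shares were separated. The *Fmr1* KO libraries of Suv39h2 were all above the WT libraries, but its change of 0.19 had a 95% interval of -0.06 to 0.45 and did not pass the threshold, although it did in limma without the mean-variance trend (unadjusted p = 0.00998). Setdb2 (mean 1.44 FPKM) had a change of -0.19 with a 95% interval of -0.56 to 0.17.

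None of the H3K27, H3K36 and H4K20 methyltransferases passed the threshold. Ezh2, the Polycomb H3K27 methyltransferase of dividing cells, was at 8.51, 7.61 and 8.26 FPKM in WT and 9.37, 8.78 and 8.43 FPKM in *Fmr1* KO, a change of 0.12 (95% interval -0.04 to 0.29) whose unadjusted p was 0.118, and 0.0491 with the trend on transcript length removed. Ezh1, its paralogue in non-dividing cells, was at 6.02, 6.61 and 6.78 FPKM in WT and 6.20, 6.10 and 6.55 FPKM in *Fmr1* KO, a change of -0.04 (95% interval -0.21 to 0.13). Ezh1 made up 39.8 to 46.5% of the pair, with overlapping genotypes. Nsd1, an H3K36 dimethyltransferase, was at 15.2, 18.5 and 16.5 FPKM in WT and 16.7, 18.3 and 20 FPKM in *Fmr1* KO, a change of 0.13, and Setd2, which trimethylates H3K36, had a change of 0.12 around a mean of 14.0 FPKM. Without WT replicate 1 these 2 changes were 0.06 and 0.05, and without WT replicate 2 Setd2 passed the unadjusted threshold in limma (0.0474). Kmt5a, which monomethylates H4K20, was at 18.3, 17.9 and 18.4 FPKM in WT and 18.0, 17.4 and 18.1 FPKM in *Fmr1* KO. Its change of -0.03 had a 95% interval of -0.14 to 0.09, and those of Kmt5b and Kmt5c, which add further methyl groups, were 0.07 and 0.13.

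Among the other SET domain genes, the shared locus of Setd6 and Ndrg4 was at 282, 273 and 261 FPKM in WT and 283, 260 and 263 FPKM in *Fmr1* KO, with a change of -0.02. Setd3, an actin histidine methyltransferase, had a change of -0.06, Setd5 of 0.04 and Setd4 of 0.11, and none passed the threshold. The *Fmr1* KO libraries of Setd4 (mean 3.91 FPKM) were all above the WT libraries.

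No KDM demethylase passed the unadjusted threshold, in 13 tested. The change was above 0 for 11 of them and below 0 for Kdm2b and Kdm7a, with a median of 0.07. Kdm1a, the LSD1 demethylase of the CoREST complex, was the most abundant, at 31.1, 29.1 and 27.9 FPKM in WT and 30.1, 31.3 and 29.8 FPKM in *Fmr1* KO, and its change was 0.05 (95% interval -0.08 to 0.18). Kdm4b (22.5 FPKM), Kdm5b (22.4), Kdm3a (17.4), Kdm4a (16.0), Kdm2a (14.1) and Kdm2b (10.4) followed, with changes from -0.01 to 0.10. Kdm6b, an H3K27 demethylase, was at a mean of 8.70 FPKM with a change of 0.10, and Kdm4c was at 8.44 FPKM with a change of 0.09.

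The libraries of 5 of the 13 tested demethylases were separated by genotype (21.1% of all tested loci were). Kdm1b, Kdm2a, Kdm4b and Kdm5a were higher in all *Fmr1* KO libraries, and Kdm7a, an H3K9 and H3K27 demethylase, was lower in all of them, with a change of -0.13 (unadjusted p = 0.104, and 0.0184 with the trend on transcript length removed). For Kdm2a and Kdm4b the separation was narrow, with changes of 0.04 and 0.07. The change of Kdm5a, an H3K4 demethylase, was 0.47, the highest of the 59 genes, but its values were only 0.615, 0.937 and 0.886 FPKM in WT and 0.941, 1.29 and 1.25 FPKM in *Fmr1* KO. It met the 1 FPKM minimum through the *Fmr1* KO mean alone, and its 95% interval ran from -0.05 to 1.0. The change was 0.31 without WT replicate 1, and the unadjusted p from limma was 0.0723 with all libraries, 0.0444 without *Fmr1* KO replicate 1 and 0.032 without the mean-variance trend. Kdm1b had a change of 0.15 around a mean of 5.26 FPKM, with an unadjusted p of 0.0878 with all libraries and 0.0433 without WT replicate 1, and Kdm8 one of 0.08 around 1.11 FPKM.

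No class I deacetylase passed the threshold. Hdac1 and Hdac2 are the catalytic subunits of the Sin3, NuRD and CoREST complexes, and Hdac8 deacetylates cohesin. Hdac3, the enzyme of the NCoR complex, was the most abundant, at 49.4, 45.5 and 47.4 FPKM in WT and 51.7, 54.2 and 48.4 FPKM in *Fmr1* KO. Its change was 0.12 (95% interval -0.01 to 0.25), and its unadjusted p was 0.074 with all libraries, 0.0366 without WT replicate 1 and 0.0327 without *Fmr1* KO replicate 3. It was also below the threshold with the trend on gene span (0.0427) or on transcript length (0.0436) removed. Hdac2 was at 46.9, 43.9 and 43.8 FPKM in WT and 48.3, 45.3 and 45.1 FPKM in *Fmr1* KO, while Hdac1 was at 5.34, 4.64 and 5.40 FPKM in WT and 5.21, 5.24 and 4.74 FPKM in *Fmr1* KO. Hdac1 made up 9.52 to 11% of the pair, with overlapping genotypes, and its extra scaffold locus leaves its level uncertain. The changes were 0.04 for Hdac2, -0.02 for Hdac1 and 0.00 for Hdac8 (mean 5.69 FPKM).

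Of the class IIa deacetylases, which shuttle between nucleus and cytoplasm with neuronal activity, Hdac9 was lower and Hdac7 higher at the unadjusted threshold. Hdac9 (chr12:34047580-34917095) was at 11.8, 13.0 and 11.4 FPKM in WT and 11.1, 9.59 and 9.22 FPKM in *Fmr1* KO. All *Fmr1* KO libraries were below all WT libraries, with a change of -0.28 (SE 0.08, unadjusted p = 0.00944, adjusted p = 0.201 in limma) that was -0.29 without WT replicate 1. It had the largest change among the 8 genes that passed the threshold. Its unadjusted p stayed below 0.05 in all 16 alternatives run, which reuse the same libraries, and so did that of Kmt2b. Hdac7 (chr15:97792661-97844502) was at 6.92, 7.15 and 7.12 FPKM in WT and 7.47, 8.40 and 8.32 FPKM in *Fmr1* KO. Its change was 0.19 (SE 0.07, unadjusted p = 0.0257, adjusted p = 0.268 in limma) and the unadjusted p was 0.0573 without WT replicate 1, 0.0505 without WT replicate 3, 0.0947 without *Fmr1* KO replicate 2 and 0.0854 without *Fmr1* KO replicate 3.

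Hdac4 and Hdac5 were also higher in all *Fmr1* KO libraries without passing the threshold. Hdac5 was at 41.0, 40.0 and 41.0 FPKM in WT and 41.4, 43.3 and 44.7 FPKM in *Fmr1* KO, a change of 0.08 (95% interval -0.03 to 0.19). Hdac4 was at 10.7, 11.1 and 10.4 FPKM in WT and 11.3, 11.6 and 12.5 FPKM in *Fmr1* KO, a change of 0.14 (95% interval -0.01 to 0.28) whose unadjusted p was 0.0592 with all libraries and 0.0459 without *Fmr1* KO replicate 1. Hdac9 made up 16.8, 18.2 and 16.3% of the summed class IIa FPKM in WT libraries, against 15.6, 13.2 and 12.3% in *Fmr1* KO libraries. This share was lower in every *Fmr1* KO library, as was the level of Hdac9 itself, while the sum of the 4 genes was 69.9 to 71.2 FPKM in WT and 71.2 to 74.7 FPKM in *Fmr1* KO.

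The class IIb and IV genes did not pass the threshold. Hdac11, the class IV enzyme, was at 36.6, 34.2 and 30.8 FPKM in WT and 30.1, 32.8 and 34.5 FPKM in *Fmr1* KO, a change of -0.06 (95% interval -0.23 to 0.11). Hdac6, the cytoplasmic tubulin deacetylase, had a change of 0.07 around 19.3 FPKM, and Hdac10, a polyamine deacetylase, one of 0.05 around 3.93 FPKM.

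**Figure D2:**
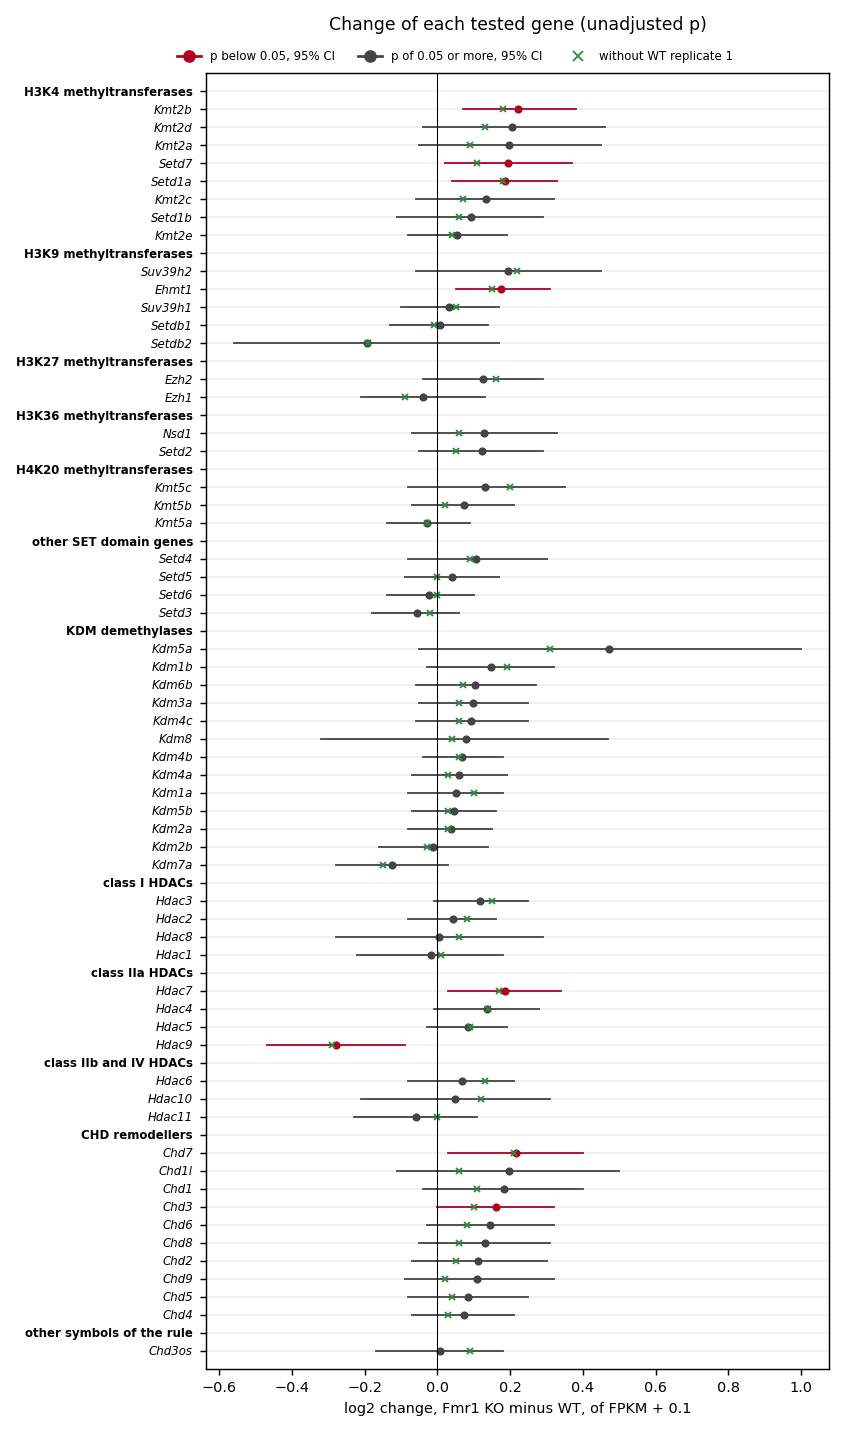
Change of the 59 tested genes, *Fmr1* KO minus WT, of log2(FPKM + 0.1), with the 95% interval from limma; red marks an unadjusted p below 0.05 and green crosses the change without WT replicate 1. Most points lie a little to the right of 0 (49 of 59), most intervals span 0, and Hdac9 stands out on the left at -0.28.

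All 10 CHD remodellers had a fitted change above 0, with a median of 0.14 that fell to 0.06 without WT replicate 1. Chd7 and Chd3 passed the unadjusted threshold, which 14.8% of all tested loci passed. All of the 10 but Chd1l have a longest annotated transcript over 4 kb. A change above 0 was found for 75.2% of all tested loci with a transcript over 8 kb and 59.5% with one of 4 to 8 kb. The summed FPKM of the 10 genes was 194, 223 and 214 for WT, against 215, 231 and 245 for *Fmr1* KO, so the groups overlapped. Chd7 (chr4:8690402-8868449), a remodeller of enhancers in neural progenitors, was at 6.41, 6.37 and 6.71 FPKM in WT and 6.75, 7.90 and 8.08 FPKM in *Fmr1* KO. The groups were separated, narrowly so for *Fmr1* KO replicate 1, with a change of 0.21 (SE 0.08, unadjusted p = 0.0292, adjusted p = 0.282 in limma). The change was again 0.21 without WT replicate 1, where the unadjusted p was 0.0602, and the p was 0.0741 without WT replicate 2, 0.0975 without *Fmr1* KO replicate 2 and 0.109 without *Fmr1* KO replicate 3. With the trend on transcript length removed, the change of Chd7 was 0.15 (unadjusted p = 0.086).

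Chd3, Chd4 and Chd5 encode alternative ATPases of the NuRD complex. Chd3 (chr11:69343273-69369499) was at 73.6, 83.8 and 82.0 FPKM in WT and 83.7, 87.1 and 97.1 FPKM in *Fmr1* KO. The groups overlapped slightly, with a change of 0.16 (SE 0.07, unadjusted p = 0.0488, adjusted p = 0.336 in limma). The change was 0.10 (unadjusted p = 0.149) without WT replicate 1, and the p was 0.0611 without WT replicate 3, 0.0686 without *Fmr1* KO replicate 2 and 0.19 without *Fmr1* KO replicate 3. The unadjusted p from limma also missed the threshold with each library centred (0.0515), with no FPKM minimum (0.0651) and without the mean-variance trend (0.092).

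Chd4 was at 37.3, 41.2 and 40.1 FPKM in WT and 39.1, 41.8 and 44.0 FPKM in *Fmr1* KO. Chd5, the neuronal member, was at 27.5, 32.1 and 29.1 FPKM in WT and 29.1, 31.5 and 33.6 FPKM in *Fmr1* KO. Their changes of 0.07 and 0.09 had 95% intervals that included 0, and were 0.03 and 0.04 without WT replicate 1. Chd3 made up 53.1, 53.3 and 54.2% of the trio in WT libraries, against 55.1, 54.3 and 55.6% in *Fmr1* KO libraries. The shares were separated, but only narrowly (54.2 against 54.3%). The symbol Chd3os, at a neighbouring locus, was at 25.4, 21.2 and 22.0 FPKM in WT and 24.3, 22.0 and 22.5 FPKM in *Fmr1* KO, a change of 0.01. The changes of Chd1, Chd1l, Chd2, Chd6, Chd8 and Chd9 lay between 0.11 and 0.20, at means from 2.60 FPKM (Chd1l) to 18.6 FPKM (Chd8), and none passed the threshold. Without WT replicate 1 they lay between 0.02 (Chd9) and 0.11 (Chd1). Chd1 and Chd8 passed without WT replicate 2 (unadjusted p of 0.0322 and 0.0498 in limma) and Chd6 without *Fmr1* KO replicate 1 (0.0393). Chd1l had separated libraries with a change of 0.20, which was 0.06 without WT replicate 1.

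**Figure D3:**
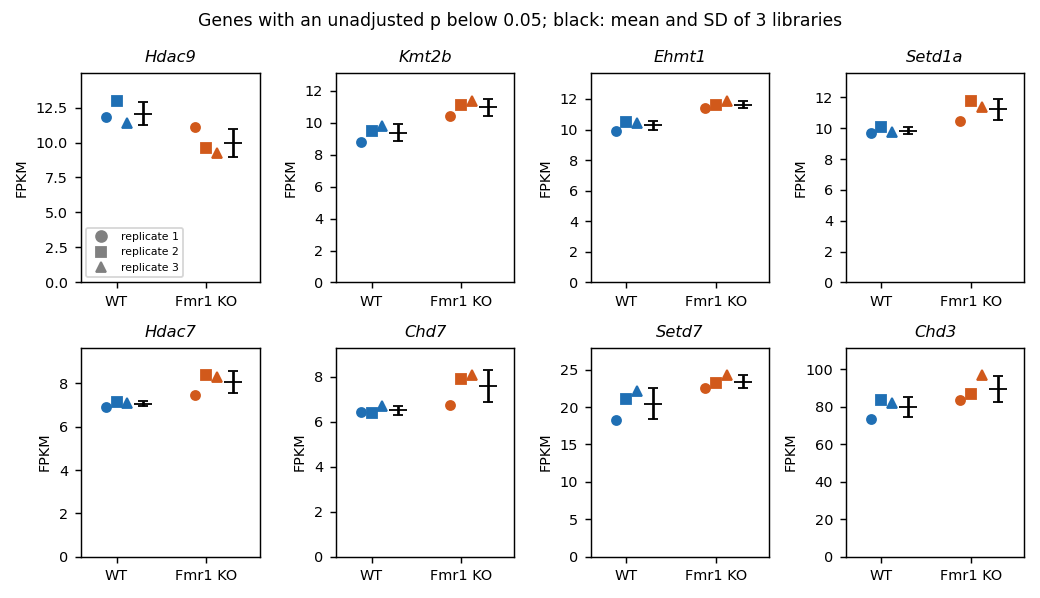
FPKM of the 8 genes with an unadjusted p below 0.05 in each library (circles, squares and triangles are replicates 1, 2 and 3), with the mean and SD of the 3 libraries of each genotype in black and axes from 0. Hdac9 is lower in *Fmr1* KO, the other 7 are higher, and the groups of Chd3 overlap (83.8 FPKM in one WT library and 83.7 FPKM in one *Fmr1* KO library).

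The upstream sequences of the 8 genes at the unadjusted threshold are shown for those with a promoter entry, all 9 windows of 5 genes. Kmt2b, Chd7 and Chd3 had no entry. The windows are the 250 bases before an annotated RefSeq start (GRCm38.p6), read 5′ to 3′ on the strand of the gene in lower case. Capitals mark a GC box, searched as GGGCGG on both strands, the core of binding sites of SP family factors.
Ehmt1 (chr2:24919610-24919859, minus strand): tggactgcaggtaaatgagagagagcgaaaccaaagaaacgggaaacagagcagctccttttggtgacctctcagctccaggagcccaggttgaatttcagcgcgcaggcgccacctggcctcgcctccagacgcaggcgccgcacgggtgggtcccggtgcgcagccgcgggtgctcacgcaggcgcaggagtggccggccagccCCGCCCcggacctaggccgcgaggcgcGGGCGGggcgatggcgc
Setd1a (chr7:127777139-127777388, plus strand): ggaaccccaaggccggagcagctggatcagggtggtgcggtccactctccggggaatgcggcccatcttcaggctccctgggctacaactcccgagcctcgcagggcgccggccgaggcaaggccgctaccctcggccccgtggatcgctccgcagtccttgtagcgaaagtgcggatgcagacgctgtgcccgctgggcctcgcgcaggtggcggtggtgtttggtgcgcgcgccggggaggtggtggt
Setd7 (chr3:51560824-51561073, minus strand): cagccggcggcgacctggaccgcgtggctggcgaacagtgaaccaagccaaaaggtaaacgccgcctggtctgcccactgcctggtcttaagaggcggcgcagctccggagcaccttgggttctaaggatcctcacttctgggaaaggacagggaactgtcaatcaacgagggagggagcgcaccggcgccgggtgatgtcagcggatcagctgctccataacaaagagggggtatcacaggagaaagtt
Hdac9, farther start (chr12:34917096-34917345, minus strand): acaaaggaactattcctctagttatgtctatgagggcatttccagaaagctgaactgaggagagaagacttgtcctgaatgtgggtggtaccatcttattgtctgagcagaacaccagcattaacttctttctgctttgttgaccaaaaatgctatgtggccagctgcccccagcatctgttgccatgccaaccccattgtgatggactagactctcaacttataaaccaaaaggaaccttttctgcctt
Hdac9, nearer start (chr12:34528890-34529139, minus strand): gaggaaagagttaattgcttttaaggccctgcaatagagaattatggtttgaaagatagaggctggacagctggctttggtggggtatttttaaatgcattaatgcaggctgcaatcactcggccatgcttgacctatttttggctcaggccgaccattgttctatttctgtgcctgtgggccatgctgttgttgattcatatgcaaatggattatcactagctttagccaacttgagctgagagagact
Hdac7, start A (chr15:97844503-97844752, minus strand): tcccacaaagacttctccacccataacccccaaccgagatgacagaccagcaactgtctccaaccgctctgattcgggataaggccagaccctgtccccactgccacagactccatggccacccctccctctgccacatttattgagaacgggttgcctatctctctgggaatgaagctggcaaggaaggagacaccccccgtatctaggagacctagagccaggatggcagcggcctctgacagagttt
Hdac7, start B (chr15:97831768-97832017, minus strand): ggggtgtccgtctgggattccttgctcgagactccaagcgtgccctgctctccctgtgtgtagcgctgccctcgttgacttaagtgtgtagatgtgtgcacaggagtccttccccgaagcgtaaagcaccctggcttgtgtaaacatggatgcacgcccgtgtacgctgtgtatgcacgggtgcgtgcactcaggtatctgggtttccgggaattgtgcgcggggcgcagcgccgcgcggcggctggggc
Hdac7, start C (chr15:97831496-97831745, minus strand): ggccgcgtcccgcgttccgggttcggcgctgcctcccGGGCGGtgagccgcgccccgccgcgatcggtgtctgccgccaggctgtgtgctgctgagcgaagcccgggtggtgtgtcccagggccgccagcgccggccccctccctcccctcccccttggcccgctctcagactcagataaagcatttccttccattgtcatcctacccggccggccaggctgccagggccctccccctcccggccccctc
Hdac7, start D (chr15:97814864-97815113, minus strand): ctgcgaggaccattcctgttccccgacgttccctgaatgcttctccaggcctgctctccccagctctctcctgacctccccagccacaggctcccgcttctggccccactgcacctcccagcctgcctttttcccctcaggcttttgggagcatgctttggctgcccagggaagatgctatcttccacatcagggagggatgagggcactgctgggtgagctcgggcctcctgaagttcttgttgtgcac
The window of Ehmt1 held 2 GC boxes and 26 CpG dinucleotides, and those of Setd1a and Setd7 held 25 and 17 CpG but no GC box. Both windows of Hdac9 were poor in CpG, with 0 at the farther start and 2 at the nearer one. Hdac7, which was higher, had 2 windows with 25 and 21 CpG, 1 of them with a GC box, and 2 with 5 and 6 CpG. Windows poor in CpG were thus found at a gene that was higher as well as at the one that was lower. Which start these cultures used was not measured.

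Across the genes, 45 of the 62 had 64 promoter entries, and 41 of the entries (64.1%) held a GC box, against 32.7% of 32851 promoters of the same length. The median number of CpG was 20 in the entries of these genes and 6 in all promoters. The letters CCGGAAG, an ETS motif, were found in 9.38% of the entries and 6.91% of all promoters, and TGACGTCA, the cyclic AMP response element, in 1.56% and 1.55%. All promoters here were those of the reference, not only those of tested loci, and a gene with several starts counted once per start. The promoters of other expressed genes were not compared. These matches describe the letters of the windows and carry no measurement of binding.

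The genes are long, and WT replicate 1 had low values at long transcripts. The longest annotated transcript had a median of 5802 bases for the tested genes and 3357 bases for all tested loci. At loci with a transcript over 8 kb, the median deviation of WT replicate 1 from the mean of the libraries was -0.148 on the log2 scale, and those of the other 5 libraries lay between -0.026 and 0.072. WT replicate 1 was the lowest of the 6 libraries for 32 of the 59 genes (54.2%) and for 24.2% of all tested loci. This was so for 15 of the 18 genes with a transcript over 8 kb (71.7% of loci of that length), for 15 of 23 with one of 4 to 8 kb (39.8%) and for 2 of 17 with a shorter one (11.7%).

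The median change of the 59 genes was 0.091 with all libraries and 0.063 without WT replicate 1. The part of this library in the upward shift was not tested. With all libraries the median change of the genes was 0.13 over 8 kb, 0.083 from 4 to 8 kb and 0.043 up to 4 kb, beside 0.063, 0.024 and -0.016 for all tested loci of those lengths. The change was above 0 for 17 of 18, 20 of 23 and 11 of 17 genes, against 75.2, 59.5 and 45.1% of those loci. Without WT replicate 1 the medians of the genes were 0.063, 0.064 and 0.062, beside 0.008, 0.005 and 0.002. Spearman's rho between change and transcript length over the 58 genes with a length, which share libraries, was 0.44 with all libraries and 0.12 without WT replicate 1, as a description across genes.

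Over all 59 genes the change was above 0 for 49 with all libraries and again for 49 without WT replicate 1, where the median was 0.063 and 0.004 for all loci. There 6 genes passed the unadjusted threshold (14.4% of all loci did), including 4 of the original 8, namely Kmt2b, Ehmt1, Setd1a and Hdac9. With the trend of each library on transcript length removed, an alternative chosen after seeing the data, 45 of 58 genes were above 0 with a median of 0.061, and 10 passed the threshold (16.5% of all loci did), including 7 of the original 8.

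**Figure D4:**
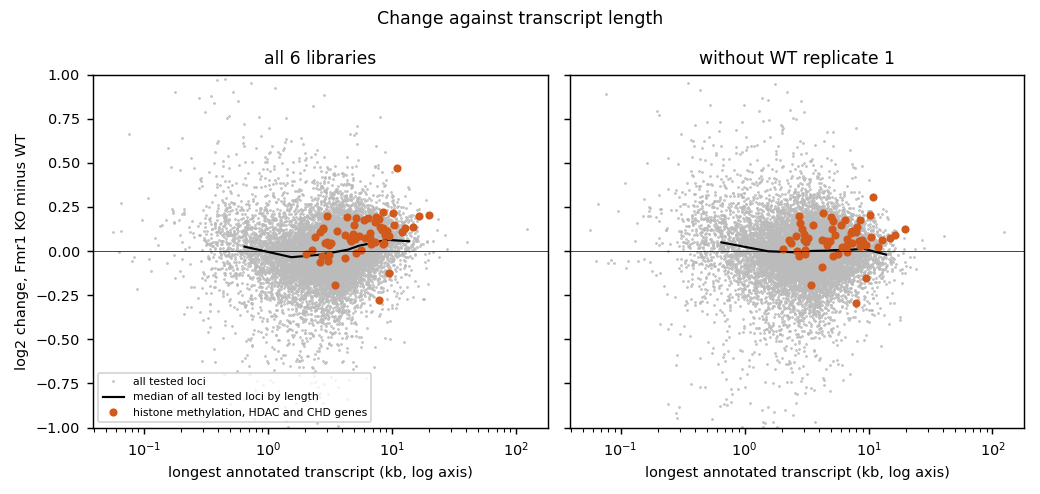
Change, *Fmr1* KO minus WT on the log2 scale, against the longest annotated transcript (log axis) with all 6 libraries and without WT replicate 1; grey points are all tested loci with a length, orange points the histone methylation, HDAC and CHD genes, and the line the median of the loci by length. Loci with a change beyond 1 in either direction (51 in the first panel and 59 in the second) are not drawn; the line rises with length in the first panel and is nearly flat in the second.

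The partners of these enzymes showed few differences. Of 141 tested genes in 9 lists of complex partners and related chromatin enzymes (146 symbols), 11 lay higher and 3 lay lower at that unadjusted threshold (9.93%, below the 14.8% of all loci), and none reached an adjusted p below 0.05 in limma. The change was above 0 for 102 of the 141 (51.7% of all tested loci were), with a median of 0.04 (0.005 for all tested loci). An uneven direction was thus not limited to the 59 genes. By list it ran from 6 of 12 MLL/COMPASS partners (median 0.01) to 24 of 27 other remodellers (median 0.08). Without WT replicate 1, 5 of the 14 genes at the threshold were still below 0.05 (Pcgf2, Phf1, Smarcd3, Sirt7 and Uty). Among 27 tested Polycomb partners, Pcgf2, Pcgf6, Rybp and Phf1 were higher and Epop was lower (18.5%). Without WT replicate 1 the unadjusted p from limma was 0.0866 for Pcgf6, 0.0733 for Rybp and 0.0838 for Epop. Pcgf2, a PRC1 subunit, was at 7.27, 7.15 and 7.50 FPKM in WT and 9.35, 9.57 and 8.0 FPKM in *Fmr1* KO, with a change of 0.29 (adjusted p = 0.17 in limma).

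None of the 12 tested MLL/COMPASS partners and none of the 8 H3K9 binding and partner genes passed the unadjusted threshold, with the lowest p at Ash2l (change 0.11) and Cbx5 (change 0.18). Of 25 HDAC complex partners, Arid4a was higher (0.15) and Ing2 lower (-0.21). In the other lists the lowest p belonged to Kat6a (0.18) among 10 acetyltransferases, Smarcd3 (0.21) among 27 other remodellers, where Smarcc2 (0.16) was higher too, Sirt7 (0.23) among 7 sirtuins, Prmt8 (-0.18) among 18 other methyltransferases, where Ash1l was higher (0.13), and Uty (0.71, adjusted p = 0.063 in limma) among 7 other demethylases. Uty is Y-linked, and the 3 Y-linked genes read here summed to 16.7 to 17.1 FPKM in WT and 31.5 to 34.5 FPKM in *Fmr1* KO, while Xist was at 59.9 to 77.9 and 53.0 to 61.3 FPKM. All 3 Y-linked genes were higher and Xist was lower at the unadjusted threshold, though the Xist libraries overlapped. Hdac6, Hdac8 and Suv39h1 lie on the X chromosome, and the part of the sex of the pups in the changes was not tested.

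Other features of the libraries moved with genotype beside these results. All 15 proliferation genes had a change above 0 and 10 passed the unadjusted threshold, with a summed level of 93.8 to 102 FPKM in WT and 115 to 118 FPKM in *Fmr1* KO. The 10 microglia markers, all at low levels, summed to 6.15 to 8.41 FPKM in WT and 1.49 to 2.59 FPKM in *Fmr1* KO. The 4 that were tested (C1qa, C1qb, C1qc and Lyz2) were all lower. They met the 1 FPKM minimum through the WT mean alone, so the filter itself favoured that direction. Of the untested markers, Cx3cr1 and P2ry12 were lower in every *Fmr1* KO library, Csf1r and Trem2 overlapped, and Aif1 and Tmem119 were listed at 0. The oligodendrocyte lineage markers summed to 346 to 403 FPKM in WT and 396 to 439 FPKM in *Fmr1* KO. The markers of excitatory neurons summed to 827 to 862 FPKM in WT and 861 to 931 FPKM in *Fmr1* KO, but they were not of one direction: Camk2a was at 480 to 508 and 513 to 592 FPKM, and Slc17a7, the vesicular glutamate transporter, at 285 to 290 and 269 to 280 FPKM, lower in every *Fmr1* KO library. The inhibitory neuron markers summed to 337 to 356 and 310 to 359 FPKM, with 1 of 6 tested above 0 and 2 lower at the unadjusted threshold. The fibroblast and mural cell markers summed to 47.7 to 52.3 and 39.1 to 47.1 FPKM, most of it Dcn at 39.0 to 43.8 and 30.1 to 39.0 FPKM. Of the others, Col1a2, below 1 FPKM, was higher in every *Fmr1* KO library and the rest overlapped. The endothelial markers, all at low levels, summed to 2.5 to 2.64 and 1.56 to 2.25 FPKM with Cldn5 listed at 0. Kdr, the only endothelial marker tested, overlapped, Pecam1 was lower in every *Fmr1* KO library, and the rest overlapped. Astrocyte markers summed to 1710 to 2010 and 1770 to 1970 FPKM, with 4 of 8 tested above 0 and 2 lower at the unadjusted threshold. S100b, at 11.8 to 14.2 and 9.96 to 10.6 FPKM, was lower in every *Fmr1* KO library, and the other astrocyte markers overlapped. The cultures, labelled as hippocampal neurons, thus also expressed defining markers of glia. In bulk RNA, a change in the number of cells of a type and a change of RNA per cell cannot be told apart, and the part of these features in the changes of the chromatin genes was not tested.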

How the data were processed

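Total RNA with an integrity number above 8 was sequenced from 6 libraries. The authors trimmed the reads, mapped them to GRCm38 with TopHat2, assembled transcripts with Cufflinks and compared the groups with Cuffdiff. The tool versions, gene annotation, kind of library and scaling were not given in the sources used. The authors deposited FPKM per library and group, with a fold change, p-value and q-value of their own that were not used here. Strand is not stated, so overlapping and antisense transcripts may share reads.

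Each of 47086 loci (48100 rows) was read once, and loci with a mean of at least 1 FPKM in either genotype were fitted on log2(FPKM + 0.1) in limma 3.58.1 (R 4.3.3), with a genotype term alone and a trend of variance on mean level, and p-values were adjusted by Benjamini-Hochberg across the 13195 loci. Fold changes on this scale understate those of low genes. The fit was tested on simulated data. The spread between 3 libraries sets the precision. Gene spans and promoters came from RefSeq (GRCm38.p6) and transcript lengths from GENCODE for GRCm38, for 61 of 62 genes.

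Values in all libraries are given for genes at an unadjusted p below 0.05, the most abundant gene of each role and the paralogue groups; of partner lists, the gene with the lowest p in each. Values of Kdm5a in each library, and those of the further Polycomb and HDAC partner genes that passed the threshold, were chosen after they were seen. The genes and lists were chosen with earlier results of these data known. The settings varied were the pseudocount (1 and 0.01), the FPKM minimum (none, and 5), centring and no mean-variance trend. Further ones were the replicate number as a block, removal of trends with gene span, and each library left out. Removal of the transcript length trend, with and without the block, was added after seeing the data.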

Additional observations from a re-analysis of the deposited data

How the results depend on the processing

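No gene of the set reached an adjusted p below 0.05 in limma in any alternative, and the lowest adjusted p was 0.0658 (Hdac9, replicate block with the transcript length trend removed). The median change ran from 0.061 to 0.113. The number of genes at an unadjusted p below 0.05 was 8 with all libraries and ran from 3 to 13 when 1 library was left out: 6 (10.2% of the genes, against 14.4% of all loci) without WT replicate 1, 12 (20.3 against 13.2%) without WT replicate 2, 5 (8.47 against 13.5%) without WT replicate 3, 13 (22 against 14.7%) without *Fmr1* KO replicate 1, and 3 (5.08%) without *Fmr1* KO replicate 2 (against 10.1%) or 3 (against 10.5%), so the share lay on either side of that of the table. The number with separated libraries, 17, then ran from 17 to 34, with 28 without WT replicate 2 and 34 without *Fmr1* KO replicate 1; fewer libraries separate more easily by construction. Of the partner genes, 14 passed with all libraries and 7 to 20 with 1 left out (8 without WT replicate 1 or *Fmr1* KO replicate 2, 7 without *Fmr1* KO replicate 3). The change of the 8 genes kept its sign in all 128 alternative values, of which 103 had an unadjusted p below 0.05. These genes were picked by that threshold in the same libraries, and the alternatives reuse those values. A change of sign was therefore unlikely from the start, and its absence is not independent support. Among the 51 genes that did not pass, 26 of 804 alternative values did, in 13 genes, and 31 values of 10 genes with a change near 0 reversed in sign, none with a p below 0.05. These were, with the trend on transcript length removed (with and without the block), Hdac1 (0.02), Kdm2a (-0.02), Kdm5b (-0.01), Setd5 (-0.002) and Setdb1 (-0.02); with the gene span trend removed, Hdac8 (-0.01) and Setdb1 (-0.0003); and with centring, Hdac8 (-0.00048). With 1 library left out the change crossed 0 for Chd3os (-0.04 to 0.09), Hdac1 (-0.09 to 0.03), Hdac10 (-0.06 to 0.12), Hdac8 (-0.14 to 0.08), Kdm2b (-0.04 to 0.03), Setd5 (-0.004 to 0.07), Setd6 (-0.06 to 0.0047) and Setdb1 (-0.02 to 0.04). The cause was not tested. Separation was not recomputed with the trends removed.

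Samples share replicate numbers across genotypes, and same-numbered libraries deviated together with correlations of 0.243, 0.058 and 0.080 for replicates 1, 2 and 3. Replicate 1 of either genotype correlated at -0.152 to -0.119 with replicates 2 and 3 of the other genotype. Replicates 2 and 3 correlated across numbers at 0.066 and 0.078, much as within numbers. A match of numbers was thus seen for replicate 1 and not for 2 and 3, so the numbers were not taken as pairs in the main fit. With the replicate block, 12 genes of the set (20.3%, against 18.7% of all loci) and 22 partner genes passed the unadjusted threshold. Beside the genes that passed without the block, these were Kmt2a (unadjusted limma value of 0.0138), Kmt2d (0.0189), Chd6 (0.0247) and Chd8 (0.0345).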
